A study of Oryctolagus cuniculus with 3 samples.

Results

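Antisense long non-coding transcripts were described here: RNAs without a called coding region that were assembled from the strand opposite to an annotated gene and overlapping one of its exons. They were taken as the transcripts with class code x in the deposited table of long non-coding transcripts, which gave 396 of 15335 transcripts, at 319 loci and opposite 305 named genes. All 3 libraries came from the oocyte and its surrounding cumulus cells (cumulus-oocyte complexes) of female IRA rabbits that were 35 days old at the start and were housed for 4 weeks under a set ammonia level. The control library CG came from rabbits under less than 3 ppm, LAC from rabbits under 10 ppm and HAC from rabbits under 30 ppm. The study had 150 rabbits. There was 1 library in each group, and the sources used here do not give the number of rabbits behind each library. The differences below therefore have no replicate check, and no test across libraries was made.

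Natural antisense transcripts are transcribed from the DNA strand opposite to another gene, and their RNA can be complementary to that gene's RNA. Some are known to act on the gene they overlap, by interfering with its transcription, by recruiting chromatin modifiers or by pairing with its RNA, while others are by-products of a shared promoter or of a neighbouring gene that runs on past its end. They are described by their arrangement with that gene: head to head when both start in the overlap, tail to tail when both end in it, and inside or enclosing when one lies within the span of the other. In the ovary, somatic cells and the oocyte exchange signals of the activin, bone morphogenetic protein and Wnt families, and several of the genes with an antisense transcript here belong to those families.

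The library labels carry a doubt that touches each comparison. The files of LAC and HAC held the same gene table in all 39681 rows, headed LAC, so a gene on the other strand has values for CG and LAC only. The mapping statistics of both files also have their valid reads exchanged, and whether the LAC values came from the 10 ppm or the 30 ppm rabbits is uncertain. The share of spliced reads was 22.01%, 16.2% and 19.9% in the files of CG, LAC and HAC. Of 13 oocyte markers all were lower in LAC than in CG by 1 or more on the log2(CPM + 1) scale, where CPM is the estimated count scaled to library size, and their summed level was 4391 and 836 CPM in CG and LAC. The 8 matched granulosa and cumulus markers summed to 14331 and 14552 CPM, with 0 past that size, where HSD17B1 shares its row with ATP6V0A1. The stroma markers summed to 26.3 and 80.6 CPM, with 4 of 6 higher in LAC. The blood and endothelium markers were near 0, at 4.40 and 8.26 CPM in all, and CDH5 was at 0 in CG. The 4 epithelium markers summed to 82.5 and 20.3 CPM, where EPCAM (17.7 and 4.95 CPM) and CDH1 (64.1 and 12.8 CPM) were lower in LAC by that size, KRT18 was higher and OVGP1 was at 0 in both. The 3 smooth muscle markers summed to 48.1 and 40.3 CPM, with 1 higher, and the 2 matched theca markers to 102 and 99.5 CPM. In bulk libraries, fewer cells of a type and less RNA per cell cannot be told apart.

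The antisense transcripts were mostly short, spliced and made of few exons. Their median length was 745 bases, with a range of 201 to 26178. Of the 396, 11 had 1 exon, 274 had 2, 80 had 3, 19 had 4 and 12 had 5 or more, up to 8. A single exon was found in 2.78% of them, against 80.0% of intronic and 78.4% of intergenic transcripts. The other classes were spliced as well, with a single exon in 0.0233% of known and 0% of exon-overlapping and junction-sharing transcripts. Exactly 2 exons were found in 69.2% of antisense and 86.9% of exon-overlapping transcripts. The strand follows the same line. Of 7577 transcripts with 1 exon in the whole table, 6444 (85.0%) had no strand in the file, and of 7758 with 2 or more exons 0 had none. A transcript without a strand cannot be placed opposite a gene, and 11 of the 1133 unspliced transcripts with a strand were in this class. The library preparation marked the second strand with dUTP, which is meant to keep strand, but whether the deposited values were resolved by strand is uncertain. Reads of a gene and of its antisense partner may not be separable where both cover the same bases.

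**Figure D1:**
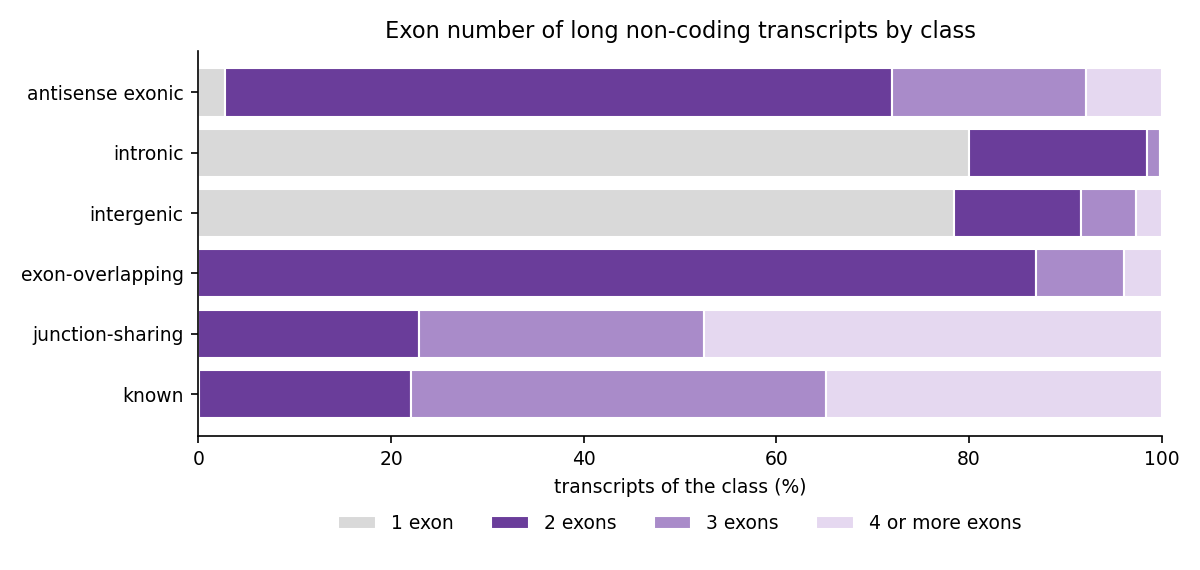
Share of transcripts (%, horizontal axis) with 1, 2, 3 or 4 or more exons in each class of the long non-coding table (vertical axis). Among antisense exonic transcripts 69.2% had 2 exons and 2.78% had 1, while 80.0% of intronic and 78.4% of intergenic transcripts had 1. Of exon-overlapping transcripts 86.9% had 2 exons and 0% had 1.

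A group of 2-exon antisense transcripts had very short introns. The intron, taken as the span minus the transcript's length, was under 100 bases in 25 of the 274 (9.12%), and the shortest was 21 bases. The same share was 11.3% in intronic, 5.53% in intergenic, 4.22% in known and 0.342% in exon-overlapping transcripts with 2 exons. This limit was chosen after the values were seen. Of the 25, 20 lay inside the span of the gene opposite, against 117 of the 249 with longer introns. They include the antisense transcripts of INHBB, SERPINE2, CALU, ALDOA and FTL, and MSTRG.9583.4 and MSTRG.9583.6 opposite INHBA. Only 11 of the 25 (44.0%) were above 0 in all 3 libraries, against 203 of the 249 (81.5%), and 8 were above 0 in 1 library alone. Whether their introns are real splice events was not tested.

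Most antisense transcripts lay within or at the end of the gene opposite. A gene on the other strand was found for 353, by the name in the file for 349 and by the largest overlap for 4, and 43 had no such row in the gene table. Of the 353, 170 lay inside that gene, 83 were tail to tail with it, 71 head to head and 29 enclosed it. The median overlap of the spans was 4501 bases, and 9 overlapped by fewer than 50 bases. A RefSeq messenger RNA was recorded at the gene opposite for 334. At 279 loci there was 1 antisense transcript and at 40 there were 2 or more, up to 8. Unplaced scaffolds held 26.5% of them, close to the 24.4% of all long non-coding transcripts. Genes with a placeholder LOC name lay opposite 145 of the transcripts, and 9 of the 101 names have a symbol in the RefSeq table.

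The level of a typical antisense transcript was low in every library. The median was 1.79, 1.53 and 2.07 FPKM in CG, LAC and HAC, where FPKM counts fragments per length of transcript and depth of library. At least 1 FPKM was reached by 299 transcripts in CG, 241 in LAC and 307 in HAC, and by 172 in all 3, while 16 were under 1 FPKM in each. At least 10 FPKM was reached by 42, 26 and 38. Those listed at 0 numbered 26 in CG, 59 in LAC and 29 in HAC, and 35 of the 59 were at 0 in LAC alone. The estimated reads behind a transcript were few, with medians of 64.1 in CG, 38.8 in LAC and 69.5 in HAC.

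A single transcript held most of the summed antisense FPKM. MSTRG.20958.1 is 1 unspliced exon of 763 bases at NW_003159343.1:1518923-1519685 on the minus strand of OryCun2.0, over the first bases of WDR74, which encodes a WD-repeat protein of ribosome assembly. It had 8997, 34109 and 7004 FPKM in CG, LAC and HAC, so LAC was the high library and HAC was close to CG. LAC was 3.79-fold above CG (95% interval 3.78 to 3.81, exact binomial, counting error only), and CG 1.28-fold above HAC (1.28 to 1.29). Its locus took 0.748% of all estimated counts in CG and 2.91% in LAC, of 2.16% and 4.12% for all loci with an antisense transcript, some of which hold other transcripts too. In estimated counts it was not the main locus in CG, where it had 586568 and the locus MSTRG.25288, described next, 687368. WDR74 itself stood at 9.03 and 11.5 CPM in CG and LAC, a difference of 0.31 on the log2(CPM + 1) scale.

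The next most abundant came from the scaffold that carries the RN18S row, the gene of 18S ribosomal RNA. There were 7 transcripts of the locus MSTRG.25288 on NW_003159740.1, opposite LOC108176098, with spans that end within the first bases of RN18S (169246 to 171114) or before it. MSTRG.25288.15 had 791, 668 and 951 FPKM in CG, LAC and HAC, and MSTRG.25288.16 had 688, 582 and 932 FPKM. HAC was 1.42-fold above LAC for MSTRG.25288.15 and 1.60-fold above it for MSTRG.25288.16. Some transcripts of that locus differed more: MSTRG.25288.1 had 362, 5.42 and 80.8 FPKM in CG, LAC and HAC, and MSTRG.25288.5 had 112, 136 and 607 FPKM. They share most of their span, and ribosomal RNA was depleted before sequencing. Reads of ribosomal RNA and of other multi-copy genes can map to several places, and multi-mapped reads were 25.4%, 27.0% and 26.1% of reads in the 3 files, so the division of such reads is uncertain. Of the summed antisense FPKM, WDR74 and this scaffold together made up 82.6%, 96.2% and 80.3% in CG, LAC and HAC. The other 388 transcripts summed to 2470, 1425 and 2620 FPKM, so that their sum was lowest in LAC where the sum over all was highest.

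Outside of these, the largest value was 340 FPKM, for a transcript opposite INHBA. MSTRG.7349.1, an unspliced exon of 4215 bases at NC_013675.1:148642423-148646637, adjoins the end of FZD5, a Wnt receptor, with an overlap of 3 bases, and it was chosen for its level after the values were seen. It had 263, 217 and 119 FPKM in CG, LAC and HAC, and HAC was the low library. FZD5 had 111 and 132 CPM in CG and LAC. The antisense locus held 10.8 estimated counts for each count of FZD5 in CG and 7.80 in LAC.

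The first comparison asked how antisense transcripts differed between the library of low ammonia and the control. More were lower than higher in LAC. Of 343 that reached 1 FPKM in either library, 31 were higher by 1 or more on the log2(FPKM + 1) scale (9.04%) and 92 were lower (26.8%). The median difference was -0.22, beside 0.32 for all long non-coding transcripts and 0.08 for those with 2 or more exons. Over all long non-coding transcripts 13.6% were higher and 12.4% lower, and over those with 2 or more exons 9.49% and 22.8%. The antisense shares were thus near those of spliced transcripts pooled over classes, though the medians differed in sign. They were on the other side of those of the whole table, in which 1075 of 6866 unspliced transcripts were higher and 503 lower. By class, the share of spliced transcripts lower in LAC ran from 5.98% (intronic) to 37.4% (intergenic). With 2 exons, 27 of 240 antisense transcripts were higher and 55 lower, and with 3 or more exons 3 of 94 were higher and 36 lower. The same split over all long non-coding transcripts is not given here, so whether it is particular to antisense transcripts is open. The part of the lower spliced-read share and of the lower oocyte and epithelium markers of LAC in these counts was not tested. At a minimum of 5 FPKM the counts were 11 higher and 37 lower, and with median-of-ratios factors, which shift LAC by -0.45 against CG, 20 and 110.

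**Figure D2:**
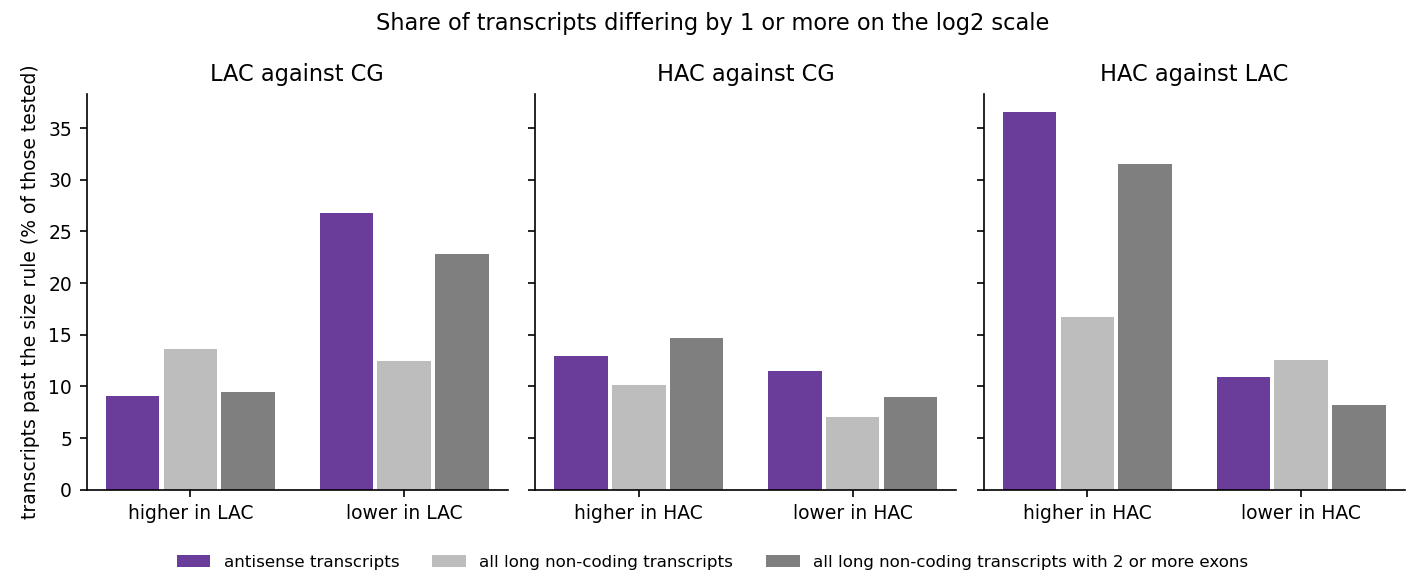
Share of transcripts (%, vertical axis) past the size rule, a difference of at least 1 on the log2(FPKM + 1) scale, higher or lower in the first-named library, for antisense transcripts, all long non-coding transcripts and those with 2 or more exons. In LAC against CG 26.8% of antisense transcripts were lower, beside 12.4% of all and 22.8% of spliced ones.

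The counts in LAC against CG were also split by position relative to the gene. A difference between positions was not tested, and exon number was not taken into account. Over all antisense transcripts 9.04% of 343 were higher in LAC and 26.8% lower, and over all long non-coding transcripts 13.6% and 12.4%. Of transcripts inside the gene opposite, 15 of 143 were higher in LAC and 25 lower. Of those tail to tail 9 of 74 were higher and 20 lower, and of those head to head 4 of 61 were higher and 13 lower. Among those that enclose it 1 of 24 was higher and 15 lower, but 10 of the 15 lie opposite the same gene, LOC100347417, and apart from that gene 5 of 14 were lower. Where no gene row was found opposite, 2 of 41 were higher and 19 lower.

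The set opposite LOC100347417, which the file describes as a gene like transcription factor Sp4, was the largest opposite 1 gene. Its 14 transcripts at 3 loci on chromosome NC_013681.1 summed to 113, 15.8 and 149 FPKM in CG, LAC and HAC. Of 11 compared in LAC against CG 0 were higher and 11 lower, and of 12 compared in HAC against CG 1 was higher and 0 lower. MSTRG.12882.6, of 2 exons and tied to the gene by an overlap of 171 bases, had 17.5, 0.26 and 31.2 FPKM, where LAC rests on 3.62 estimated reads. The gene stood at 0.80 and 0.01 CPM in CG and LAC, so it was hardly detected in either library.

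Other transcripts lower in LAC had no or few reads there. MSTRG.11177.1, a 219-base transcript with a 34-base intron opposite LOC108177453, reached 160 FPKM in CG, and both other libraries list it at 0. The transcript opposite CALU, the gene of the calcium-binding protein calumenin, reached 7.19 FPKM in CG and likewise stands at 0 in the other two, while CALU had 942 and 835 CPM in CG and LAC. Both have introns under 100 bases.

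The transcripts higher in LAC included one at a Wnt modulator gene. MSTRG.14783.1, a 2874-base transcript head to head with DKK2, a secreted modulator of Wnt signalling, had 17.7, 51.0 and 28.5 FPKM in CG, LAC and HAC. LAC was 2.88-fold above CG (95% interval 2.74 to 3.03, counting error only) and HAC 1.61-fold (1.52 to 1.70). DKK2 stood at 1417 and 2086 CPM in CG and LAC, a smaller difference in the same direction. MSTRG.20537.2, of 8 exons, opposite TRIM13, a ubiquitin ligase gene, had 1.35, 5.52 and 3.38 FPKM, 4.09-fold higher in LAC than in CG (3.61 to 4.64), while the joined row of TRIM13 and KCNRG had 98.6 and 81.1 CPM. MSTRG.16941.1, opposite LOC102723302 and with a 54-base intron, had 0.26, 9.06 and 0 FPKM in CG, LAC and HAC, where CG rests on 2.56 estimated reads. The gene opposite had 6722 and 11787 CPM.

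**Figure D3:**
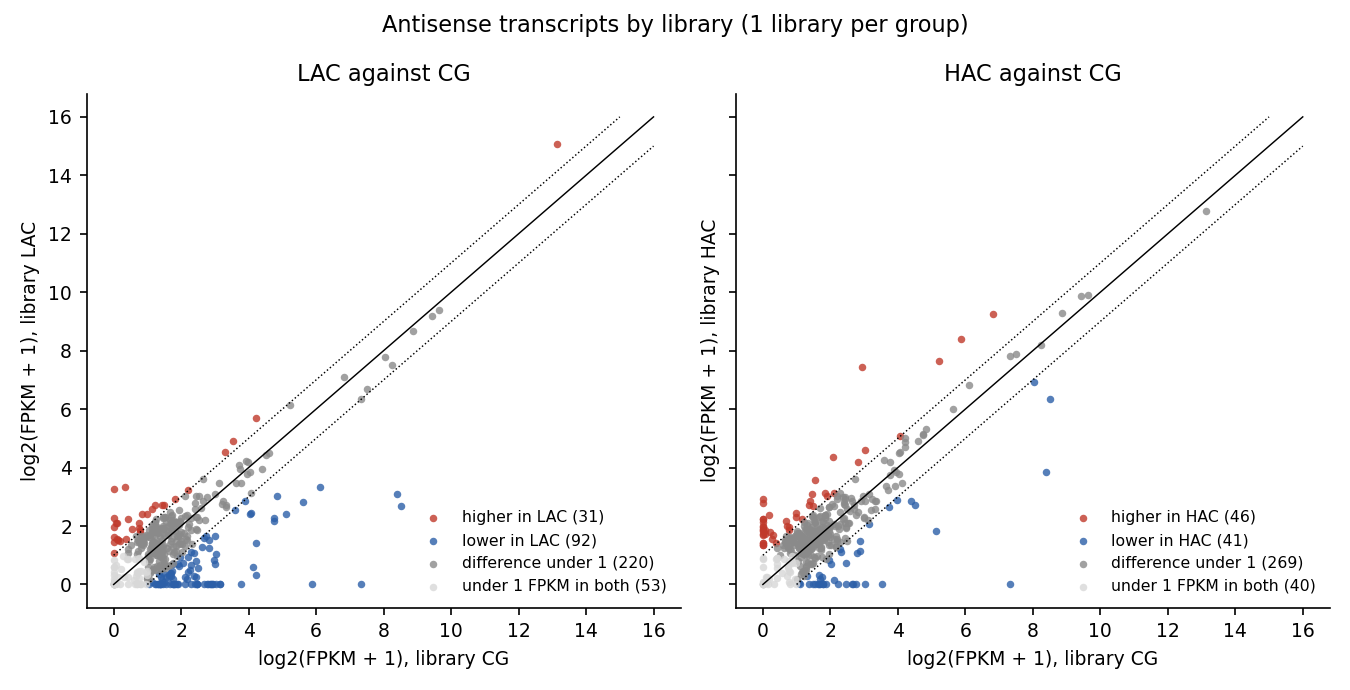
Each point is 1 of the 396 antisense transcripts, with its log2(FPKM + 1) in CG on the horizontal axis and in LAC (left) or HAC (right) on the vertical axis, where dotted lines mark a difference of 1. In LAC 92 points lie below the lower line and 31 above the upper one, while in HAC 41 lie below and 46 above, and the point at the upper right is the WDR74 antisense transcript.

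Opposite INHBA, the gene of the activin and inhibin subunit beta A that granulosa cells secrete, the antisense locus differed between libraries both in its sum and in its main transcript. MSTRG.9583 lies on NC_013678.1, where 6 transcripts of 2 exons run on the plus strand into the end of INHBA, which spans 24690193 to 24702892 on the minus strand. Together they had 441, 49.6 and 355 FPKM in CG, LAC and HAC, so CG and HAC were high and LAC was 8.89-fold below CG. MSTRG.9583.6, with a 38-base intron, had 333, 7.52 and 13.3 FPKM in CG, LAC and HAC. It made up 75.6% of the sum in CG and 3.73% in HAC.

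A different transcript led in each of the other libraries. MSTRG.9583.2, with a 368-base intron, had 57.5 FPKM in CG and 340 FPKM in HAC and stands at 0 in LAC, so it made up 95.6% of the sum in HAC. MSTRG.9583.4, with a 29-base intron, had 10.6, 29.1 and 0 FPKM in CG, LAC and HAC, and led in LAC with 58.6%. MSTRG.9583.1 had 33.8, 4.34 and 2.52 FPKM and was highest in CG, 7.79-fold above LAC (95% interval 6.89 to 8.85, counting error only) and 13.4-fold above HAC (11.5 to 15.7). MSTRG.9583.3 had 5.74 FPKM in CG and MSTRG.9583.5 8.68 FPKM in LAC, and each was listed at 0 in both other libraries. Their spans all start within a few bases of each other and differ mainly in the intron, so how reads were divided among them rests on the authors' estimate. The counts of the whole locus do not depend on that division.

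INHBA itself hardly differed. It stood at 2418 and 2259 CPM in CG and LAC, from 191482 and 153423 estimated counts, a difference of -0.10. The antisense locus had 86157 and 7616 estimated counts. It thus held 0.450 counts for each count of INHBA in CG and 0.0496 in LAC. Over the 191 loci whose gene row holds antisense transcripts alone, with a gene opposite and at least 10 counts in each of the 4 values, this ratio was at least 2-fold lower in LAC at 22 and at least 2-fold higher at 41.

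At 2 other loci, chosen after the values were seen, the antisense counts differed far more between CG and LAC than those of the gene. MSTRG.20076.1, a 7237-base transcript opposite SCAI, the gene of a suppressor of cell invasion, had 0.04, 3.29 and 2.30 FPKM in CG, LAC and HAC, so CG alone was low. Its locus held 25 and 1825 estimated counts in CG and LAC, beside 1452 and 1458 of SCAI. The locus MSTRG.12182, with 2 transcripts opposite the chromatin remodeller gene CHD1L, went the other way, with 239 and 12 counts beside 1085 and 952. Its transcripts had 3.35, 0 and 0.10 FPKM and 2.23, 0.32 and 0 FPKM in CG, LAC and HAC, so that here CG alone was high.

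**Figure D4:**
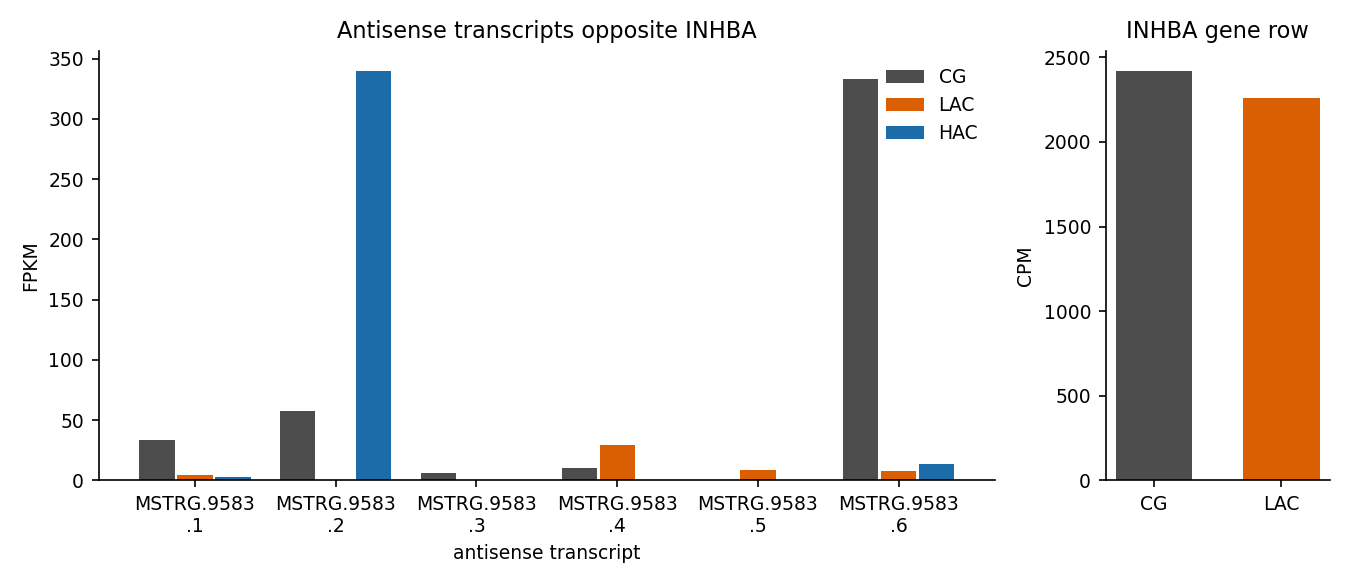
FPKM (left, vertical axis) of the 6 antisense transcripts opposite INHBA in CG, LAC and HAC, and CPM (right) of the INHBA gene row in CG and LAC, with 1 library per bar and no error bars. MSTRG.9583.6 leads in CG with 333 FPKM and MSTRG.9583.2 in HAC with 340 FPKM, while no transcript exceeds 29.1 FPKM in LAC and the gene itself has 2418 and 2259 CPM.

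The second comparison set the library of high ammonia against the control. Of 356 antisense transcripts compared, 46 were higher in HAC (12.9%) and 41 lower (11.5%). The median difference was 0.14. Over all long non-coding transcripts 10.1% were higher and 7.06% lower, and over those with 2 or more exons 14.7% and 8.92%. The antisense counts were split almost evenly, with median-of-ratios factors 44 to 45, and they were near those of spliced transcripts. MSTRG.25695.1, opposite LOC108176166, had 6.71, 0 and 173 FPKM in CG, LAC and HAC, 25.8-fold above CG (95% interval 21.6 to 31.1, counting error only). Its neighbour MSTRG.25693.1 opposite the same gene had 301, 181 and 295 FPKM and did not share that difference.

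Others with a large difference in HAC also lay inside the gene opposite. MSTRG.24024.1, inside LOC100342501, which the file describes as a polyubiquitin-B-like gene, had 36.2, 70.1 and 201 FPKM in CG, LAC and HAC. HAC was 5.53-fold above CG (5.12 to 5.98), and genes of this family share sequence, so its reads may be divided among copies. The transcript inside MIF4GD, the gene of a factor for histone mRNA translation, had 5.85 FPKM in HAC and was listed at 0 in both others. MSTRG.13675.1, inside FNDC3B, the gene of a fibronectin type III domain protein, had 5.29, 11.3 and 0 FPKM in CG, LAC and HAC.

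Counts past the size rule were highest between HAC and LAC. Of 356 compared, HAC was the higher library for 130 (36.5%) and the lower one for 39 (11.0%). Over all long non-coding transcripts 16.8% were higher and 12.6% lower, and over those with 2 or more exons 31.5% and 8.22%. With 3 or more exons 59 of 101 antisense transcripts were higher in HAC and 9 lower. The share over all long non-coding transcripts with 3 or more exons is not given here. By class, the share of spliced transcripts higher in HAC ran from 9.47% (intronic) to 52.9% (intergenic). Where the 3 libraries spanned at least 1 on the log2 scale, the transcript was assigned to the library farthest from the mean of the others. LAC stood apart for 107 of 215 (49.8%), above the others for 27 and below them for 80. HAC stood apart for 75, above for 55 and below for 20, and CG for 33, above for 25. Among 1943 long non-coding transcripts with 2 or more exons these shares were 47.5% for LAC, 33.8% for HAC and 18.7% for CG, so the antisense shares were close to them.

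The third comparison set each antisense transcript beside the gene on the other strand, in LAC against CG. As a group these genes had shares near those of all genes. Of 254 gene rows with at least 10 estimated counts in the higher library, 7 were higher by 1 or more on the log2(CPM + 1) scale and 33 lower. Their median was -0.10. Over all annotated gene rows 1.94% were higher and 10.5% lower (median -0.12), and over rows with a RefSeq messenger RNA 1.89% and 11.0%. There were 288 pairs with a value for both, on 223 gene rows, since several antisense transcripts can share a gene. In 174 pairs neither passed the size rule, in 73 only the antisense transcript did (26 higher, 47 lower), and in 21 only the gene did (3 higher, 18 lower). In 20 pairs both did: 17 were lower in both, 1 higher in both and 2 opposite in direction.

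The gene opposite was then grouped by what its antisense transcript did, without a test of the difference between groups. The gene was lower in 17 of 65 pairs where the antisense transcript was lower (26.2%), in 18 of 195 pairs where the antisense transcript did not pass (9.23%) and in 1 of 28 where it was higher (3.57%). The 17 pairs lie on 13 gene rows. The median difference of the gene was -0.52 where the antisense transcript was lower and 0.07 where it was higher. Of the 65 pairs with a lower antisense transcript, 11 lie opposite LOC100347417 and repeat its difference of -0.82. INHBA and LOC103346764 hold 4 each, so this median and these shares count some genes several times. Across all 288 pairs Spearman's rho between both differences was 0.35, given as a description, since pairs share libraries and in part genes. Oocyte markers were lower in the same library, and their part in these pairs was not tested.

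The pairs that were lower in both included receptors, transporters and a homeobox gene. Opposite PTPRB, the gene of a receptor tyrosine phosphatase known from endothelium, MSTRG.5061.1 had 48.3, 6.09 and 63.9 FPKM in CG, LAC and HAC, 7.94-fold below CG in LAC (95% interval 6.73 to 9.42, counting error only). PTPRB stood at 40.8 and 7.07 CPM in CG and LAC, and the antisense locus held 3210 and 429 estimated counts beside 3232 and 480 of the gene, nearly the same number in each library. Opposite ABCC4, an efflux transporter gene, MSTRG.8229.1 had 26.0, 3.49 and 33.6 FPKM, and ABCC4 had 11.1 and 2.71 CPM. For both antisense transcripts HAC was above CG and LAC alone was low. The endothelial markers PECAM1, CDH5 and VWF were at most 1.35 CPM in either library. PTPRB and ABCC4 were chosen for their antisense levels after the values were seen.

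By the rule for pairs, LMX1A and ABCA4 stood out for the size of the gene's difference. Opposite LMX1A, a LIM homeobox transcription factor gene, MSTRG.11882.1 had 3.50, 0.15 and 1.47 FPKM in CG, LAC and HAC, and LMX1A had 28.3 and 4.06 CPM. Opposite ABCA4, a retinoid transporter gene of photoreceptors, MSTRG.12414.1 had 2.87, 0.92 and 5.26 FPKM, and ABCA4 had 15.8 and 2.06 CPM. LOC103347344 stood at 11.2 and 0 CPM in CG and LAC beside an antisense transcript at 2.39 and 0 FPKM. LOC100339689 had 31.8 and 3.42 CPM beside one at 1.66 and 0.20 FPKM. All 4 antisense transcripts were under 6 FPKM in each library.

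The other gene rows with lower values on both strands included LOC103346764, which the file describes as zonadhesin-like, and GPC3, a glypican gene. The row of LOC103346764 joins it with 2 neighbouring genes and had 78.3 and 20.7 CPM in CG and LAC. All 4 of its antisense transcripts were lower in LAC, and they summed to 52.3, 6.25 and 71.3 FPKM in CG, LAC and HAC. MSTRG.20003.1 opposite GPC3 had 2.10, 0.24 and 2.66 FPKM, and GPC3 had 31.2 and 8.31 CPM. The antisense transcripts at both genes were low in LAC alone, and in HAC they were above CG. PTPRT, a receptor tyrosine phosphatase gene with 10.4 and 2.64 CPM, had 2 antisense transcripts of 1 locus that differed from each other most in HAC. MSTRG.21030.4 had 4.49, 0 and 0.66 FPKM and MSTRG.21030.1 had 3.21, 2.37 and 19.5 FPKM in CG, LAC and HAC. Together they summed to 7.70 and 2.37 FPKM in CG and LAC, 3.25-fold lower in LAC. These 3 genes were named after their values were seen.

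Few pairs went otherwise. CEMIP, the gene of a protein that degrades hyaluronan, shares a row with LOC108175485 that stood at 77.6 and 431 CPM in CG and LAC, and its antisense transcript MSTRG.21723.1 had 0.30, 1.95 and 0.83 FPKM, higher in LAC as well (6.50-fold, 95% interval 4.48 to 9.71). LOC100343032 stood at 0.28 and 26.4 CPM in CG and LAC, the reverse of its antisense transcript MSTRG.2565.1 at 6.31 and 0 FPKM.

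**Figure D5:**
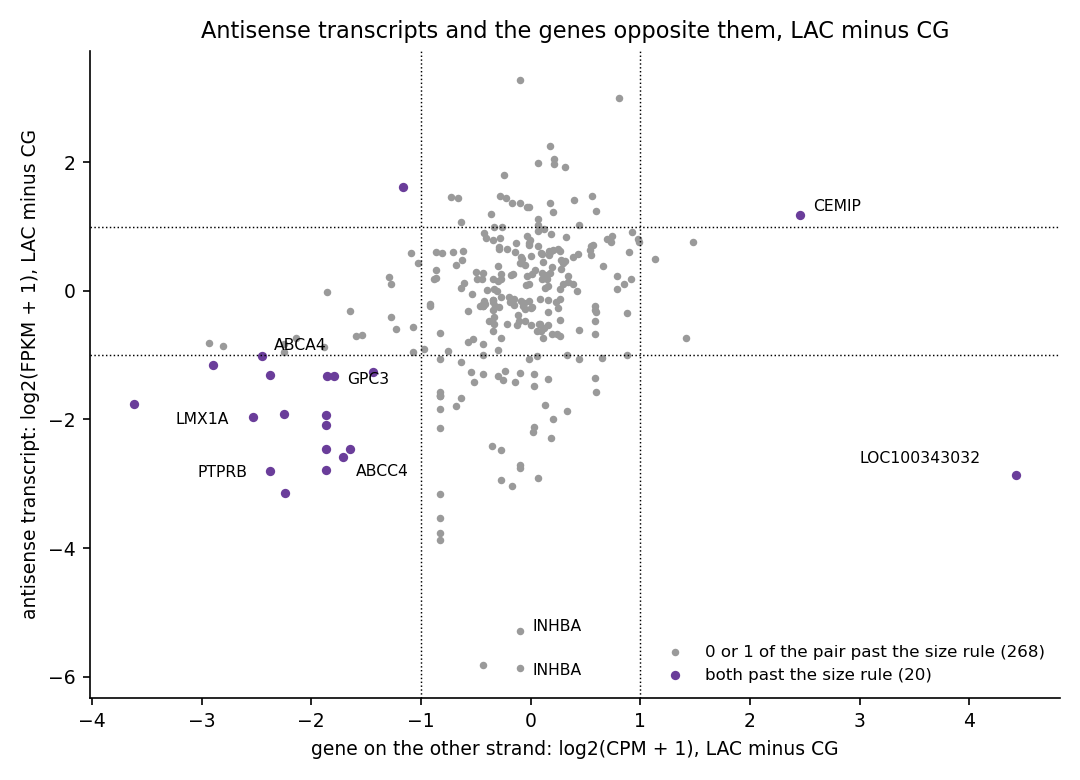
Each point is 1 of 288 pairs, with the difference LAC minus CG of the gene (log2(CPM + 1), horizontal axis) against that of the antisense transcript (log2(FPKM + 1), vertical axis), where dotted lines mark 1 and -1. The 17 pairs lower in both fill the lower left corner, and of the 6 INHBA transcripts, at a gene difference of -0.10, 4 lie low and 2 above 1.

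The antisense transcripts were sought at genes of the cumulus-oocyte complex by lists of known functions. Of 327 list genes with a row, 9 had one (2.75%), beside 274 of 23439 gene names of annotated rows (1.17%). None lay opposite the 58 oocyte and maternal genes, the 18 cumulus expansion genes, the 36 stress and ammonia metabolism genes or the 29 genes of other cell types. Of the 34 granulosa and cumulus genes 5 had antisense transcripts: BMPR1B, HSD17B1, INHBA, INHBB and SERPINE2. Over their 10 transcripts 3 of 9 compared were higher in LAC than in CG and 4 lower, and 6 of these 7 lie opposite INHBA (2 higher, 4 lower). The shares over all antisense transcripts were 9.04% and 26.8%, and over all long non-coding transcripts 13.6% and 12.4%.

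Antisense transcripts at the other 4 granulosa genes were few and low. MSTRG.14907.1, an unspliced exon of 5900 bases inside BMPR1B, a bone morphogenetic protein receptor gene, had 1.13, 2.06 and 1.44 FPKM in CG, LAC and HAC. MSTRG.18524.2 lies inside the row that joins HSD17B1, the gene of an estradiol-forming enzyme, with ATP6V0A1. It had 5.21, 6.30 and 6.25 FPKM, so its libraries were close. MSTRG.6678.1, inside INHBB, another activin beta subunit gene, was listed at 0 in CG and LAC and had 3.43 FPKM in HAC. MSTRG.7488.1, inside the protease inhibitor gene SERPINE2, reached 3.78 FPKM in LAC and stands at 0 in both others. INHBB stood at 2881 and 2668 CPM in CG and LAC, and SERPINE2 at 1631 and 1842 CPM.

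The remaining lists gave 4 genes. MSTRG.4141.1, head to head with CCNE2, the gene of cyclin E2, had 1.19, 1.49 and 0.92 FPKM in CG, LAC and HAC. MSTRG.11265.1, inside LAMA4, a laminin chain gene, had 3.31, 7.10 and 7.82 FPKM, higher in HAC than in CG by 1.03 on the log2 scale and in LAC by 0.91. MSTRG.22883.1, inside CREBBP, a histone acetyltransferase gene, had 1.68, 2.79 and 1.47 FPKM. MEIS2, a homeobox gene, had 6 antisense transcripts at its start, which summed to 9.42, 8.96 and 12.0 FPKM. Of these, 0 of 4 compared passed the size rule in LAC and 1 of 5 was higher in HAC, MSTRG.16580.7, which was listed at 0 in CG and LAC and had 3.67 FPKM in HAC.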

How the data were processed

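RNA of cumulus-oocyte complexes was sequenced in 1 library for each of CG, LAC and HAC. Per the submitters' processing notes fastp, HISAT2 and the build OryCun2.0 were used. The assembler and the step that estimated abundance are not given in the sources used here. Coverage, a signal, and FPKM were given by the authors for every long non-coding transcript, per the file headers. The gene table holds the authors' estimated counts and FPKM, as deposited. A deposited estimated count equalled coverage times length over 75 at 99.5% of 8651 loci with 1 transcript in CG (within 1% or 1 count), and reads have 150 bases, so it stands for about 0.5 reads. Intervals (95%, exact binomial) were computed on estimated reads and cover counting error only. PCR copies are not independent molecules.

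FPKM was used as deposited. Gene counts, which summed to 78461882 in CG and 68523767 in LAC, were scaled to CPM with trimmed mean of M values factors (30% of ratios and 5% of levels trimmed), computed from their formula in Python 3.11.15 with pandas 2.3.3, numpy 2.4.6 and SciPy 1.17.1 and tested on simulated data. The size rule is a difference of at least 1 on the log2 scale after adding 1, with at least 1 FPKM or 10 counts in the higher library. With 1 library per group no p-value was computed. The gene columns of the HAC file, 2 of 12 columns of per-sample values, repeat those of LAC and were not used.

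Named transcripts are the 6 with the highest mean FPKM, the 5 that differed most in each direction for LAC and for HAC against CG at 5 FPKM or more, the 3 most apart per library, the 6 pairs past the size rule with the largest gene difference and up to 3 per gene list. One transcript that the rule names is not reported here. The class and all lists were chosen with earlier results of these data known. LOC names were looked up in the RefSeq table of mOryCun1.1, and no coordinate of it was used. Alternatives were another pseudocount, minimum level, size rule, scaling, sums per locus, the gene FPKM and a partner chosen by coordinates. After the values were seen, counts without unspliced transcripts and without WDR74 and the RN18S scaffold were added.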

Additional observations from a re-analysis of the deposited data

How the results depend on the processing

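No paired analysis was possible because each group has 1 library. Of 78 alternative values 48 stayed within 1.5 times the main count, among them each sum per locus, each gene count and both additions made after the values were seen. The 48 include the counts with no minimum level, which could not differ. A difference of 1 after adding 1 already needs at least 1 FPKM in the higher library. Sums per locus count 319 loci in place of 396 transcripts. The other 30 follow. A higher minimum level, size rule or range keeps only part of the main calls, so its counts can only fall. For the other settings the cause was not tested. With a pseudocount of 0.1, 62 transcripts were higher in LAC than in CG (31 in the report), 79 higher and 65 lower in HAC than in CG (46 and 41), 63 lower in HAC than in LAC (39), CG stood apart for 57 (33), and 46 pairs went the same way and 6 opposite ways (18 and 2). With at least 5 FPKM the counts were 11 higher and 37 lower in LAC than in CG, 18 and 18 in HAC against CG, 50 and 14 in HAC against LAC, 11, 46 and 24 apart in CG, LAC and HAC, and 6 pairs the same way and 1 opposite. With a size rule of 2 they were 4 and 33, 13 and 11, 40 and 10, and 2 and 1 for pairs, and with a range of at least 2 the libraries stood apart for 12, 39 and 19. Median-of-ratios factors left 20 higher in LAC than in CG. They shift all long non-coding values by -0.45 in LAC and -0.07 in HAC against CG and by 0.38 in HAC against LAC. Few estimated reads stand behind a median transcript, and values at 0 can be failed estimates.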

Other observations

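Antisense transcripts of the class compared above, but not named there, were also read at other genes of signalling and the cell surface. These genes were chosen after the values were seen. MSTRG.18348.1, head to head with NOG, the gene of the bone morphogenetic protein antagonist noggin, had 7.71, 10.1 and 3.66 FPKM in CG, LAC and HAC, and NOG had 12.4 and 15.2 CPM in CG and LAC. SLIT3, the gene of a secreted guidance ligand, had 6 antisense transcripts that summed to 9.55, 4.85 and 15.3 FPKM, while SLIT3 had 1235 and 1860 CPM. MSTRG.11166.1, inside the transcription factor gene SIM1, had 1.90, 0.81 and 11.0 FPKM, so HAC alone was high, and SIM1 had 4.17 and 0.78 CPM. MSTRG.12400.1, at the end of CNN3, the gene of a calponin, was close in all 3 libraries at 23.4, 21.8 and 29.4 FPKM, and CNN3 had 2387 and 1976 CPM. MSTRG.10823.1, inside the ubiquitin ligase gene UBR2, was also close, at 15.4, 13.3 and 12.9 FPKM.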
